A study of Mus musculus with 38 samples.

Results

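The genes described here are the tumor necrosis factor (TNF) superfamily and the apoptosis machinery in mouse liver. The members are the gene rows whose symbol begins with Tnf, or with Casp, Birc, Ripk or Traf and a digit, or with Bcl2, together with Fas, Fasl, Fadd, Cflar, Bax, Bak1, Bid, Bad, Mcl1, Diablo, Xiap and Apaf1 where a row of that name was present. This gave 55 of the 10547 genes analysed. They were 2 ligand genes, 9 receptors, 12 adaptors and kinases, 5 TNF-induced genes, 5 genes of the inhibitors of apoptosis and their antagonist Diablo, 10 genes of caspases and the apoptosome, and 12 genes of the BCL-2 family. Traf3ip1, a ciliary transport protein, and Tnfsfm13, the read-through of Tnfsf12 and Tnfsf13, were kept because the rule on names took them.

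The tissue was formalin-fixed, paraffin-embedded liver of sex-matched C57BL/6 mice, aged 6 to 8 weeks, that were either WT or Trail.mye. Trail.mye mice carry a conditional Trail (Tnfsf10) allele and Cre recombinase under Lyz2, a promoter active in macrophages, monocytes and neutrophils, so that the ligand gene is deleted in these cells, and the WT mice carry neither allele. Each genotype received either a control diet (CON) or a diet with 0.1% DDC (diethoxycarbonyl-1,4-dihydrocollidine), which injures bile ducts and causes cholestasis, in 3 rounds of 5 days separated by 3 days of chow, and livers were taken on day 22. On the GeoMx platform, transcripts were counted in segments of a region of interest (ROI). A PanCK+ segment holds the cholangiocytes of a periportal ROI, an IBA1+ segment holds its macrophages, and further IBA1+ segments were taken in the parenchyma. The PanCK+ class had 3 segments from WT CON, 4 from WT DDC, 4 from Trail.mye CON and 5 from Trail.mye DDC, the periportal IBA1+ class had 2, 4, 4 and 5, and the parenchymal IBA1+ class had 1, 2, 2 and 2, which makes 38 segments of 23 ROIs. The labels name no animal. Segments are therefore the replicates here and some share a mouse, which makes the p-values too small to stand for animals.

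TNF superfamily ligands bind receptors of the TNF receptor superfamily. Death receptors (FAS, TNFR1 and, in the mouse, the TRAIL receptor encoded by Tnfrsf10b) recruit FADD and caspase-8, which cleaves the executioner caspases, while other receptors act through TRAF adaptors and inhibitors of apoptosis on NF-kB. The BCL-2 family sets whether mitochondria release cytochrome c, which assembles caspase-9 on APAF1. In the injured liver these pathways are known for the removal of cholangiocytes, hepatocytes and activated immune cells, and for inflammatory signaling.

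Most members were read near the detection limit, and the limit differed between groups. The deposited counts do not fall below 1, and 32.6% of the members' values lay at this floor, against 27.2% over all genes. The number of the 55 members at 1 count ranged from 0 to 48 in a segment, and total counts ranged from 20319 to 836971. In PanCK+ segments it was 34 to 46 in WT CON, 16 to 24 in WT DDC, 12 to 27 in Trail.mye CON and 0 to 1 in Trail.mye DDC. In periportal IBA1+ segments it was 37 to 48, 30 to 46, 0 to 12 and 0 to 1 in the same order. In both classes and on both diets every WT segment had a lower total than every Trail.mye segment, so that depth cannot be told apart from genotype there. In the parenchymal class the totals of the genotypes overlapped on DDC. Within each genotype every PanCK+ segment on DDC had a higher total than every PanCK+ segment on CON. Depth therefore cannot be told apart from diet in the PanCK+ class either. Values are given as Q3-normalized counts, in which 1 count was worth 0.131 to 5.25 depending on the segment. No fold is given against a group at the floor throughout. ROI 035 of Trail.mye DDC stood apart. Its PanCK+ and IBA1+ totals were 836971 and 568719, and its negative probe, which matches no mouse transcript, read 5.66 and 5.51 Q3-normalized counts against 1.40 to 2.62 in the other PanCK+ and periportal IBA1+ segments of that group. Results that change without this ROI are given with and without it.

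**Figure D1:**
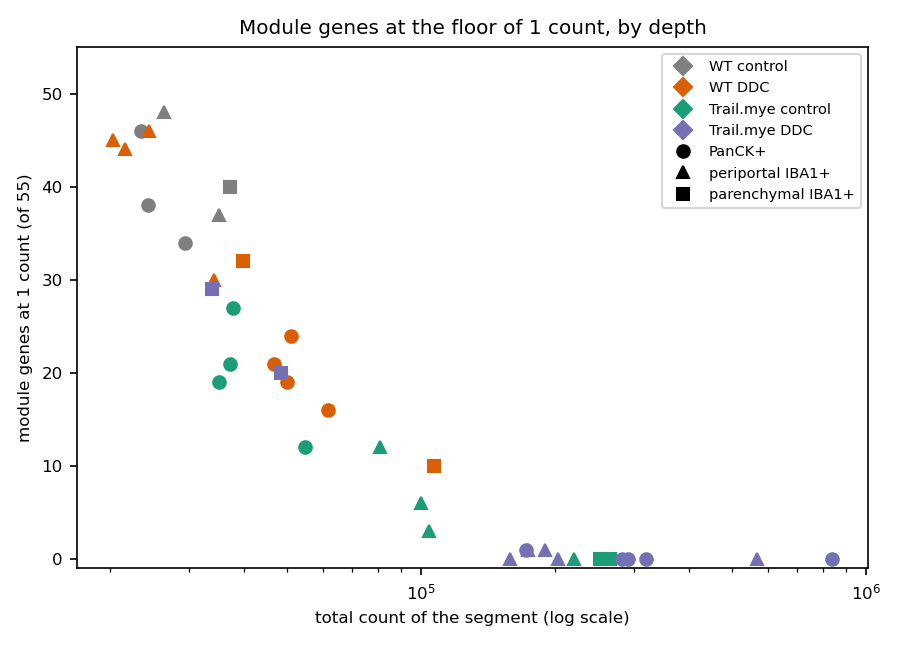
Number of the 55 module genes at the floor of 1 count (y axis) against the total count of the segment (x axis, log scale), with color for genotype and diet and shape for the segment class. The PanCK+ and periportal IBA1+ segments of Trail.mye DDC have 0 to 1 genes at the floor, and the WT CON segments of both classes have 34 to 48.

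Mcl1, which encodes an anti-apoptotic BCL-2 family protein, was the member most clearly above background, at more than 2 times the negative probe in 35 of 38 segments and at a median of 7.26 times it. In the deep Trail.mye DDC group, Bcl2l1, Birc3, Casp12, Casp4 and Mcl1 exceeded 2 times the negative probe in all 5 PanCK+ segments. In the 5 periportal IBA1+ segments these were Casp2, Mcl1, Tnfrsf11a, Tnfrsf1a and Tnfrsf1b. That is 9.09% of the members in PanCK+ segments, against 18.7% of all genes. Tnf, the gene for the founding ligand, was at 1 count in 20 segments and above 2 times the negative probe in 9.

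Tnfsf10, the ligand gene that is deleted in myeloid cells of Trail.mye mice, was not analysed here, so that the deletion was not checked in these segments. Tnfrsf10b, which encodes the mouse death receptor for TRAIL, was measured. In PanCK+ segments it read 3.50, 5.25 and 5.25 in WT CON, which is 1 count in each, and 7.41, 6.30, 2.63 and 14.7 in WT DDC. It read 3.50, 7.88, 5.25 and 6.30 in Trail.mye CON and 8.08, 7.00, 4.11, 9.72 and 5.46 in Trail.mye DDC. The groups overlapped, and the 2 DDC groups averaged 7.76 ± 5.06 (SD, n = 4) and 6.87 ± 2.19 (n = 5). Neither the diet in Trail.mye mice (log2 fold change 0.31, SE 0.44, adjusted p = 0.900, edgeR) nor the genotype on DDC (-0.11, SE 0.39, adjusted p = 1.00) passed the test. In periportal IBA1+ segments the means were 10.5 ± 7.43 in WT CON, 5.69 ± 0.875 in WT DDC, 3.06 ± 1.86 in Trail.mye CON and 3.29 ± 2.72 in Trail.mye DDC, and the 2 WT groups were at 1 count in all but 2 of their segments. Between the segments of an ROI Tnfrsf10b passed the test (edgeR). It was higher in the PanCK+ than in the IBA1+ segment of the same ROI in 11 of 15 ROIs and lower in 1, with 3 undecided, which means that both segments were at 1 count or equal, and it was higher in 5 of 5 ROIs of Trail.mye DDC (log2 fold change 0.65, SE 0.17, adjusted p = 0.0121). Without ROI 036 the adjusted p was 0.0506, and in the ROIs of Trail.mye DDC alone it was 0.0388. The call held in 4 of 7 other settings. It was lost with limma (0.0890) and without pairing the segments by ROI (0.0606). With all segments thinned to the smallest total the log2 fold change was 0.30 (adjusted p = 0.939, edgeR).

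Whether DDC feeding changed the module in periportal macrophage segments was read within each genotype. In Trail.mye mice 4 of 55 members (7.27%) rose on DDC and none fell, at an adjusted p under 0.05 over all genes (edgeR), beside 9.38% of all genes called, 4.2% higher and 5.18% lower. At an unadjusted p under 0.05 there were 8 members, and 21.1% of all genes. The 4 were the survival gene Mcl1, the death receptor gene Fas, Tnfrsf11a, which encodes RANK, a receptor that acts through NF-kB, and Apaf1, the scaffold of the apoptosome. Of the 9 receptors 2 rose, of the 12 BCL-2 family genes 1 rose, of the 10 genes of caspases and the apoptosome 1 rose, and no adaptor, inhibitor of apoptosis, TNF-induced gene or ligand passed. With TMM factors in place of the upper quartile, and also without ROI 035, 2 members rose and 1, Traf1, fell. The median log2 fold change was 0.12 over the members and 0.07 over all genes.

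Mcl1 read 10.5, 15.8, 24.9 and 13.1 in Trail.mye CON and 41.4, 36.4, 38.1, 20.4 and 42.8 in Trail.mye DDC. The ROI 035 segment, at 20.4, was the one that overlapped the controls, and the other 4 lay above all of them. The means were 16.1 ± 6.29 (n = 4) and 35.8 ± 8.97 (n = 5), with a log2 fold change of 1.02 (SE 0.29, adjusted p = 0.0158), and of 1.18 without ROI 035 (adjusted p = 0.00113). The call was lost without ROI 026, 027 or 029 of the controls, with adjusted p up to 0.0789. In WT mice Mcl1 read 5.25 and 10.5 on CON and 26.3, 52.5, 15.8 and 31.5 on DDC (log2 fold change 1.98, SE 0.80, adjusted p = 0.495). These groups did not overlap, as for 1.99% of all genes in this direction. The difference in diet effect between the genotypes did not pass (interaction -0.96, SE 0.91, adjusted p = 1.00). Averaged over both genotypes, a contrast added after the data were seen, Mcl1 rose by 1.50 on the log2 scale (SE 0.41, adjusted p = 0.0181) and was the one member called there (4.22% of all genes were called, 1.11% higher and 3.11% lower, and 9.29% had an unadjusted p under 0.05 against 1 member). That call was lost without WT CON ROI 003 (adjusted p = 0.217) or 005 (0.114) or without WT DDC ROI 009 (0.0645).

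Tnfrsf11a read 5.25, 6.57, 5.25 and 5.25 in Trail.mye CON and 10.5, 7.27, 15.1, 14.7 and 6.002 in Trail.mye DDC. The lowest DDC segment lay within the control range. The log2 fold change was 1.07 (SE 0.32, adjusted p = 0.0194), and the call was lost without ROI 028 (0.111), 029 (0.0595) or 035 (0.112). In WT mice the values were 26.3 and 5.25 on CON and 15.8, 5.25, 5.25 and 3.50 on DDC, of which 4 were single counts, with a log2 fold change of -1.15 (SE 0.80, adjusted p = 0.938). The interaction of diet and genotype had a log2 value of 2.22 (SE 0.88) and did not pass (unadjusted p = 0.0142, adjusted p = 1.00). It rested on the WT CON value of 26.3 in ROI 003, and was 0.66 without it (unadjusted p = 0.673).

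Fas read 1.75, 3.94, 3.94 and 1.31 in Trail.mye CON, where 2 segments were at 1 count, and 6.18, 7.27, 4.60, 9.91 and 4.50 in Trail.mye DDC. No DDC segment was as low as any control segment, which held for 4.04% of all genes in this direction. The log2 fold change of 1.19 (SE 0.39, adjusted p = 0.0430) was near the threshold, and the call was lost in 12 of the 15 fits that left out 1 segment, with adjusted p up to 0.256 (without ROI 035). Apaf1 read 1.75, 5.25, 4.60 and 2.63 in Trail.mye CON and 9.27, 9.70, 5.91, 9.51 and 5.25 in Trail.mye DDC, where only the last value reached down to the controls. Its log2 fold change was 1.07 (SE 0.34, adjusted p = 0.0344), and the call was lost in 6 of 15 such fits (ROIs 026, 028, 029, 032, 033 and 035), with adjusted p up to 0.131 without ROI 035. Under other settings the Mcl1 call held in 4 of 6 alternatives that tested it, the Tnfrsf11a call in 1 of 6 (adjusted p of 0.0548 with TMM factors, 0.137 with DESeq2 and 0.301 with limma), the Fas call in 1 of 4 (0.0734 with limma and 0.145 with the floor set to 0) and the Apaf1 call in 0 of 4 (0.0778 with TMM factors and 0.0621 with limma). In WT mice Fas and Apaf1 were each at 1 count in both CON segments and in 3 of 4 DDC segments, so that a diet effect was not detectable at this depth. In ROI 035, Fas and Apaf1 were 1.80 and 1.73 times the negative probe, against 2.66 to 4.11 times in the other 4 DDC segments.

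**Figure D2:**
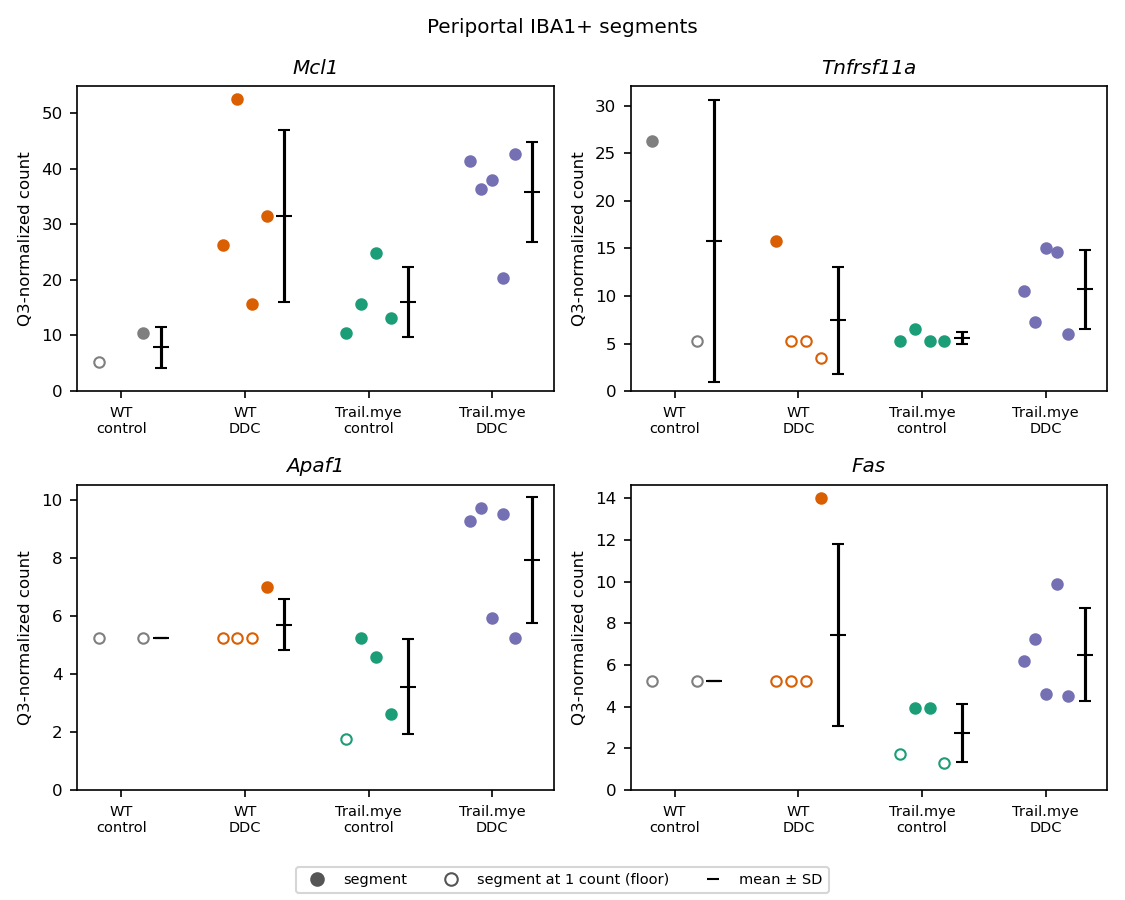
Q3-normalized counts (y axis) of the 4 genes called for diet in Trail.mye mice, in periportal IBA1+ segments by genotype and diet. Each point is a segment, an open point is a segment at 1 count, and bars are mean ± SD. Mcl1 lies higher on DDC in both genotypes, while most WT points of Fas and Apaf1 are at the floor.

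Other cell types' genes moved with the diet in these segments, and their part in the result was not tested. The summed level of 10 hepatocyte markers fell from a median of 10398 to 2856 in Trail.mye mice and from 9945 to 2932 in WT mice, and that of 10 fibroblast markers went from 146 to 996 and from 70.9 to 902. The cholangiocyte markers went from 44.3 to 202 in Trail.mye and from 57.8 to 326 in WT mice, and the macrophage markers from 627 to 527 and from 890 to 452. Of the 10 neutrophil markers 5 were measured. Their sum went from 32.0 to 52.3 in Trail.mye mice, with 39.4 on both diets in WT mice. In WT CON 8 cholangiocyte, 6 fibroblast and 2 neutrophil markers were at 1 count in every segment. In WT DDC 2 cholangiocyte and 2 neutrophil markers were. A change in the WT neutrophil markers was therefore hardly detectable at this depth. In a segment, a higher share of cells that express a gene and more RNA per cell cannot be told apart. Group depth also rose with DDC in Trail.mye mice, from a median total of 101994 to 189209 counts, and when all segments were thinned to the smallest total of the class none of the 4 calls remained (adjusted p of 0.312 for Mcl1, 0.833 for Tnfrsf11a, 0.513 for Fas and 0.424 for Apaf1). The log2 fold changes were then 1.51 for Mcl1, 1.64 for Fas, 2.77 for Apaf1 and 0.73 for Tnfrsf11a. The smallest total was 20319 counts, and near this depth most WT segments held 1 count of Fas and Apaf1. The thinned folds of these genes therefore cannot show whether the change is larger or smaller.

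The promoter sequences of the 4 called genes are shown because NF-kB acts downstream of several receptors of the module. They are the 250 bases before the RefSeq start on build GRCm38.p6, written 5′ to 3′ on the gene's strand. Capitals mark matches, on either strand, to an NF-kB core written as GGG and CC with 5 bases of any kind between them (GG and CCC when read on the other strand) or to an AP-1 site written as TGANTCA.
Mcl1 (chr3:95658471-95658720, plus strand): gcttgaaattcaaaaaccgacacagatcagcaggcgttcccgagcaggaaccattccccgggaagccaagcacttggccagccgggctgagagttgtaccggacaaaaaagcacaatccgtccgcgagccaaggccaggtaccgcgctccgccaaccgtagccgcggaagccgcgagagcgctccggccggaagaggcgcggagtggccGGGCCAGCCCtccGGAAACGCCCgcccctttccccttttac
Fas (chr19:34290409-34290658, plus strand): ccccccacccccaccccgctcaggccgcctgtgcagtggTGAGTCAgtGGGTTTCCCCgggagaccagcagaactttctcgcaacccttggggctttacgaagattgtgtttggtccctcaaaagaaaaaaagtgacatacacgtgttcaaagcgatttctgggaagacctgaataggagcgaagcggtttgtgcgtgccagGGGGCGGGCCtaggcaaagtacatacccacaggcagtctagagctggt
Tnfrsf11a (chr1:105780473-105780722, plus strand): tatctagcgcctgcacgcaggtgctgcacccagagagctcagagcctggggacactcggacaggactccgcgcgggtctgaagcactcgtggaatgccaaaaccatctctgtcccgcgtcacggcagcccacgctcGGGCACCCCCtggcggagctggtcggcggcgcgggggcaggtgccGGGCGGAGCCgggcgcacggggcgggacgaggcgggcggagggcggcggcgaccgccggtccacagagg
Apaf1 (chr10:91082744-91082993, minus strand): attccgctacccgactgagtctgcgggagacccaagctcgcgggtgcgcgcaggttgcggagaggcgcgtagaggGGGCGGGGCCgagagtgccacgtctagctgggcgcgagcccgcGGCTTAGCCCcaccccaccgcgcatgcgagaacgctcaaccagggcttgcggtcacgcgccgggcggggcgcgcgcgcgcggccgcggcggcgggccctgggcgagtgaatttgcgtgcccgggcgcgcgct
Each of the 4 held 2 matches to the NF-kB core, and Fas also held 1 AP-1 match, next to its upstream NF-kB match and not overlapping it. Of all 32851 such promoters, 45.8% held the NF-kB core and 6.75% the AP-1 site. A match is a description of the sequence and not a site of binding.

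Other members did not pass the test in periportal IBA1+ segments of Trail.mye mice. Tnfrsf1b, which encodes TNFR2, averaged 12.4 ± 5.07 on CON and 23.2 ± 3.89 on DDC (log2 fold change 0.76, SE 0.26, adjusted p = 0.0560), and was called without ROI 035 (0.0290). Tnfrsf12a, which encodes the TWEAK receptor, had a log2 fold change of 0.80 (adjusted p = 0.214), which turned to -0.69 after thinning. Of the adaptors, Traf1 and Cflar had values in the other direction. Traf1, a TRAF that binds TNFR2 and inhibitors of apoptosis, read 12.3, 10.5, 9.85 and 15.8 on CON and 8.65, 4.85, 3.94, 9.12 and 1.50 on DDC (log2 fold change -0.83, SE 0.30, adjusted p = 0.0746). Traf1 did not overlap between the diets, which held for 5.38% of all genes in this direction. It was called with TMM factors (0.0392) and without ROI 035 (-1.22, 0.00806). Cflar, the inhibitor of caspase-8 activation, had a log2 fold change of -0.60 (SE 0.25, adjusted p = 0.131). In WT mice no member was called for diet (edgeR) with 1.19% of all genes called, 1 member (Mcl1) had an unadjusted p under 0.05 beside 5.09% of all genes, and DESeq2 called 0 and limma 1.

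In PanCK+ segments no member was called for diet within either genotype. In Trail.mye mice edgeR, DESeq2 and limma each called 0 of 55 members, with 2.1% of all genes called by edgeR, and 6 members had an unadjusted p under 0.05, all higher on DDC, beside 11.3% of all genes in either direction. This count was 2 with TMM factors, 0 with DESeq2, 10 with limma (9 of them higher), 0 after thinning and 2 without ROI 029. The 6 included Tnf, Tnfrsf12a, Birc3, Casp4 and Bax. Tnf was at 1 count in all 4 Trail.mye CON segments (3.50, 2.63, 2.63 and 2.10) and read 8.48, 4.90, 9.59, 8.01 and 5.46 on DDC. The groups did not overlap, as for 5.72% of all genes in this direction, but the floor leaves no fold to give (adjusted p = 0.224). In WT PanCK+ segments Tnf was at 1 count in all 3 CON segments and read 4.94, 4.20, 2.63 and 8.40 on DDC, which overlapped them.

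Birc3, an inhibitor of apoptosis that is itself an NF-kB target, averaged 4.67 ± 1.01 in WT CON, where every segment was at 1 count, 11.0 ± 5.23 in WT DDC, 6.52 ± 3.28 in Trail.mye CON and 13.2 ± 2.74 in Trail.mye DDC. Its log2 fold change in Trail.mye mice was 1.00 (SE 0.41, adjusted p = 0.270). Casp4, the inflammatory caspase that senses intracellular lipopolysaccharide, averaged 4.46 ± 4.03 and 9.47 ± 2.83 (log2 fold change 1.32, adjusted p = 0.172), with 3 of 4 control segments at 1 count. Bax, a pore-forming BCL-2 family member, read 7.00, 2.63, 2.63 and 4.20 on CON and 8.08, 8.40, 9.59, 7.75 and 9.66 on DDC. These groups did not overlap, as for 5.72% of all genes in this direction. The control values lay near the floor, since 1 count was worth 2.10 to 3.50 in those segments. The log2 fold change of 1.10 did not pass (adjusted p = 0.401) and turned to -1.50 after thinning.

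Tnfrsf12a was the receptor gene with the smallest p for diet in PanCK+ segments of either genotype. It read 7.00, 5.25 and 5.25 in WT CON and 19.8, 4.20, 34.1 and 21.0 in WT DDC, and 10.5, 2.63, 2.63 and 2.10 in Trail.mye CON and 12.5, 11.2, 11.0, 6.43 and 10.5 in Trail.mye DDC. In both genotypes 1 segment broke the separation, ROI 009 among WT DDC and ROI 026 among Trail.mye CON. Within a genotype the log2 fold change was 1.63 (SE 0.65, adjusted p = 0.414) in WT and 1.26 (SE 0.52, adjusted p = 0.318) in Trail.mye mice. Averaged over both genotypes it rose by 1.45 (SE 0.42, adjusted p = 0.0301) as the one member called, where 3.15% of all genes were called, 2.23% higher and 0.92% lower. At an unadjusted p under 0.05 there were 4 members, and 10.7% of all genes. The call was lost in 8 of 16 fits without 1 segment, each of WT CON ROIs 001, 003 and 005, WT DDC ROIs 011 and 013, and Trail.mye CON ROIs 027, 028 and 029 (adjusted p up to 0.134). It was 0.0103 without ROI 035.

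The markers moved with diet here as well, and their part in these values was not tested. The summed level of 10 cholangiocyte markers had a median of 1024 in WT CON, 1814 in WT DDC, 637 in Trail.mye CON and 1380 in Trail.mye DDC, and that of the hepatocyte markers 3284, 2309, 4139 and 2043. In the same order the fibroblast markers had medians of 84.0, 360, 122 and 176 and the macrophage markers 59.5, 133, 73.0 and 123. The cholangiocyte, fibroblast and macrophage medians were each highest in WT DDC, where the mean of Tnfrsf12a was also highest. Median totals were 24303, 50364, 37490.5 and 291784 counts. In WT mice the totals ran from 23481 to 29510 on CON and from 46676 to 61665 on DDC. In Trail.mye mice they ran from 35078 to 54834 and from 172180 to 836971. Depth therefore cannot be told apart from diet in PanCK+ segments.

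**Figure D3:**
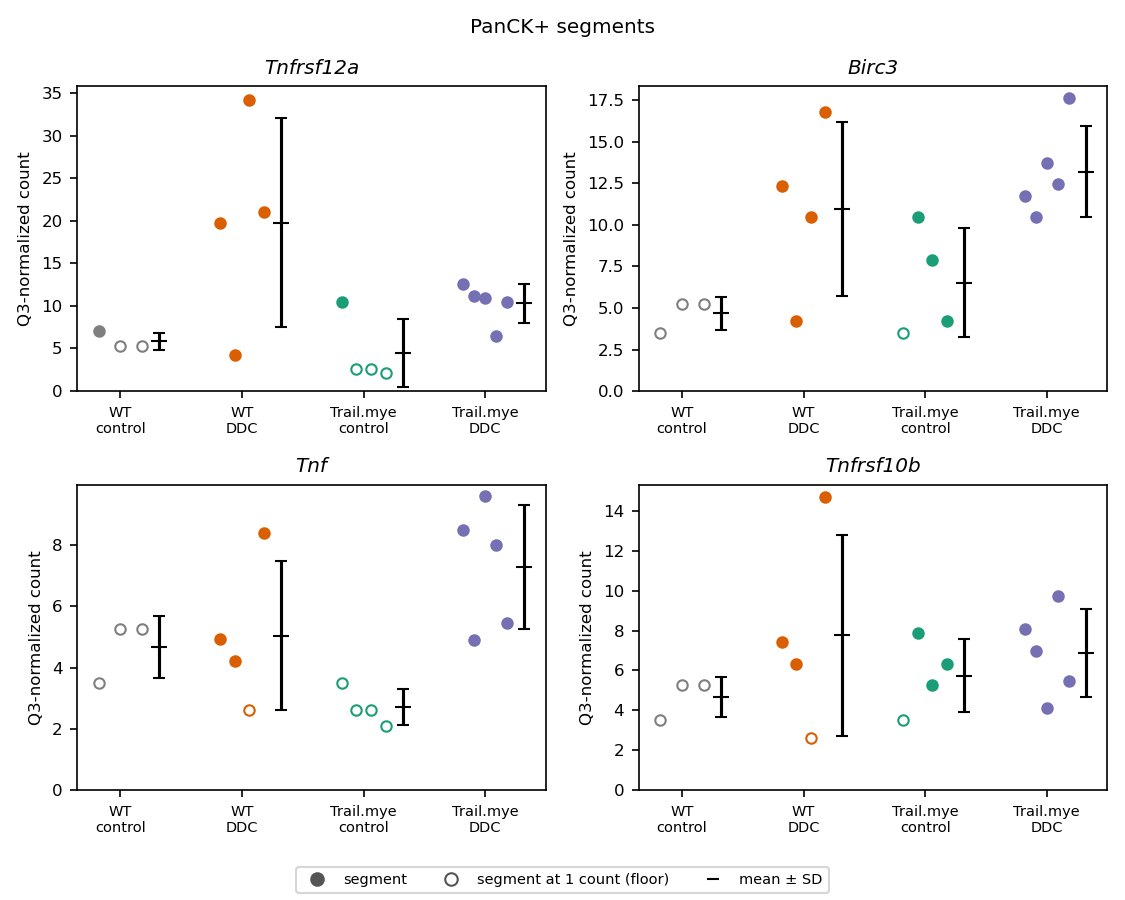
Q3-normalized counts (y axis) of Tnfrsf12a, Birc3, Tnf and Tnfrsf10b in PanCK+ segments by genotype and diet. Each point is a segment, an open point is a segment at 1 count, and bars are mean ± SD. All segments of WT CON are open for Birc3, Tnf and Tnfrsf10b, and so are all segments of Trail.mye CON for Tnf.

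In WT PanCK+ segments 2 members had an unadjusted p under 0.05 and none was called (edgeR, with DESeq2 at 0 and limma at 1), beside 6.4% and 0.91% of all genes. Besides Tnfrsf12a this was Bcl2l13, a mitochondrial BCL-2 family protein. It read 10.5, 5.25 and 15.8 on CON, which are 3, 1 and 3 counts. On DDC it was at 1 count in all 4 segments (2.47, 2.10, 2.63 and 2.10). Both groups were at or near the floor, so that no fold is given (adjusted p = 0.387). The median log2 fold change of the members was -0.08 in WT and 0.15 in Trail.mye mice, beside -0.17 and 0.18 over all genes, and in Trail.mye mice both medians changed sign with TMM factors, to -0.11 and -0.06. The calls over all genes then split into 59 higher and 108 lower instead of 151 and 70.

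The comparison of Trail.mye with WT mice asked whether the module differs between cholestatic livers with and without myeloid Trail. No member was called on DDC in PanCK+ segments, where 0.152% of all genes were called, and 5 had an unadjusted p under 0.05 beside 9.23% of all genes (DESeq2 and limma called 0). The smallest p was that of Tnfrsf12a, which averaged 10.3 ± 2.30 (n = 5) in Trail.mye DDC and 19.8 ± 12.3 (n = 4) in WT DDC (log2 fold change -0.97, SE 0.31, adjusted p = 0.298), with the WT value of ROI 009 below all Trail.mye values. The other 4 had higher means in Trail.mye mice. Apaf1 and Birc6 had log2 fold changes of 1.21 (SE 0.47, adjusted p = 0.417) and 1.14 (SE 0.42, adjusted p = 0.412). They averaged 3.38 and 4.82 in WT DDC, where 1 count was worth 2.10 to 2.63, so that these folds rest on WT values near the floor. Bcl2l13 and Traf6 were at 1 count in all 4 WT DDC segments, which leaves no fold to give. With TMM factors and with DESeq2 only 2 members had an unadjusted p under 0.05 and neither was higher in Trail.mye mice, and after thinning 4 had, 1 of them higher. In periportal IBA1+ segments no member was called on DDC, with 0.019% of all genes called and 1 member, Tnfrsf1b, at an unadjusted p under 0.05 beside 2.38% of all genes (log2 fold change 1.13, SE 0.44, adjusted p = 1.00). It read 5.25, 15.8, 5.25 and 14.0 in WT DDC, of which 2 values were single counts, and 24.7, 19.4, 28.9, 19.8 and 23.3 in Trail.mye DDC. On the control diet 0 members were called in either class (0.218% and 0.199% of all genes), with 0 members at an unadjusted p under 0.05 in PanCK+ and 1 in periportal IBA1+ segments (2.59% and 2.65% of all genes). For the interaction of diet and genotype 0 members were called (0.114% and 0.0569% of all genes), with 2 and 1 at an unadjusted p under 0.05 (3.85% and 1.92% of all genes). DESeq2 and limma also called 0 members in each of these 5 comparisons.

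**Figure D4:**
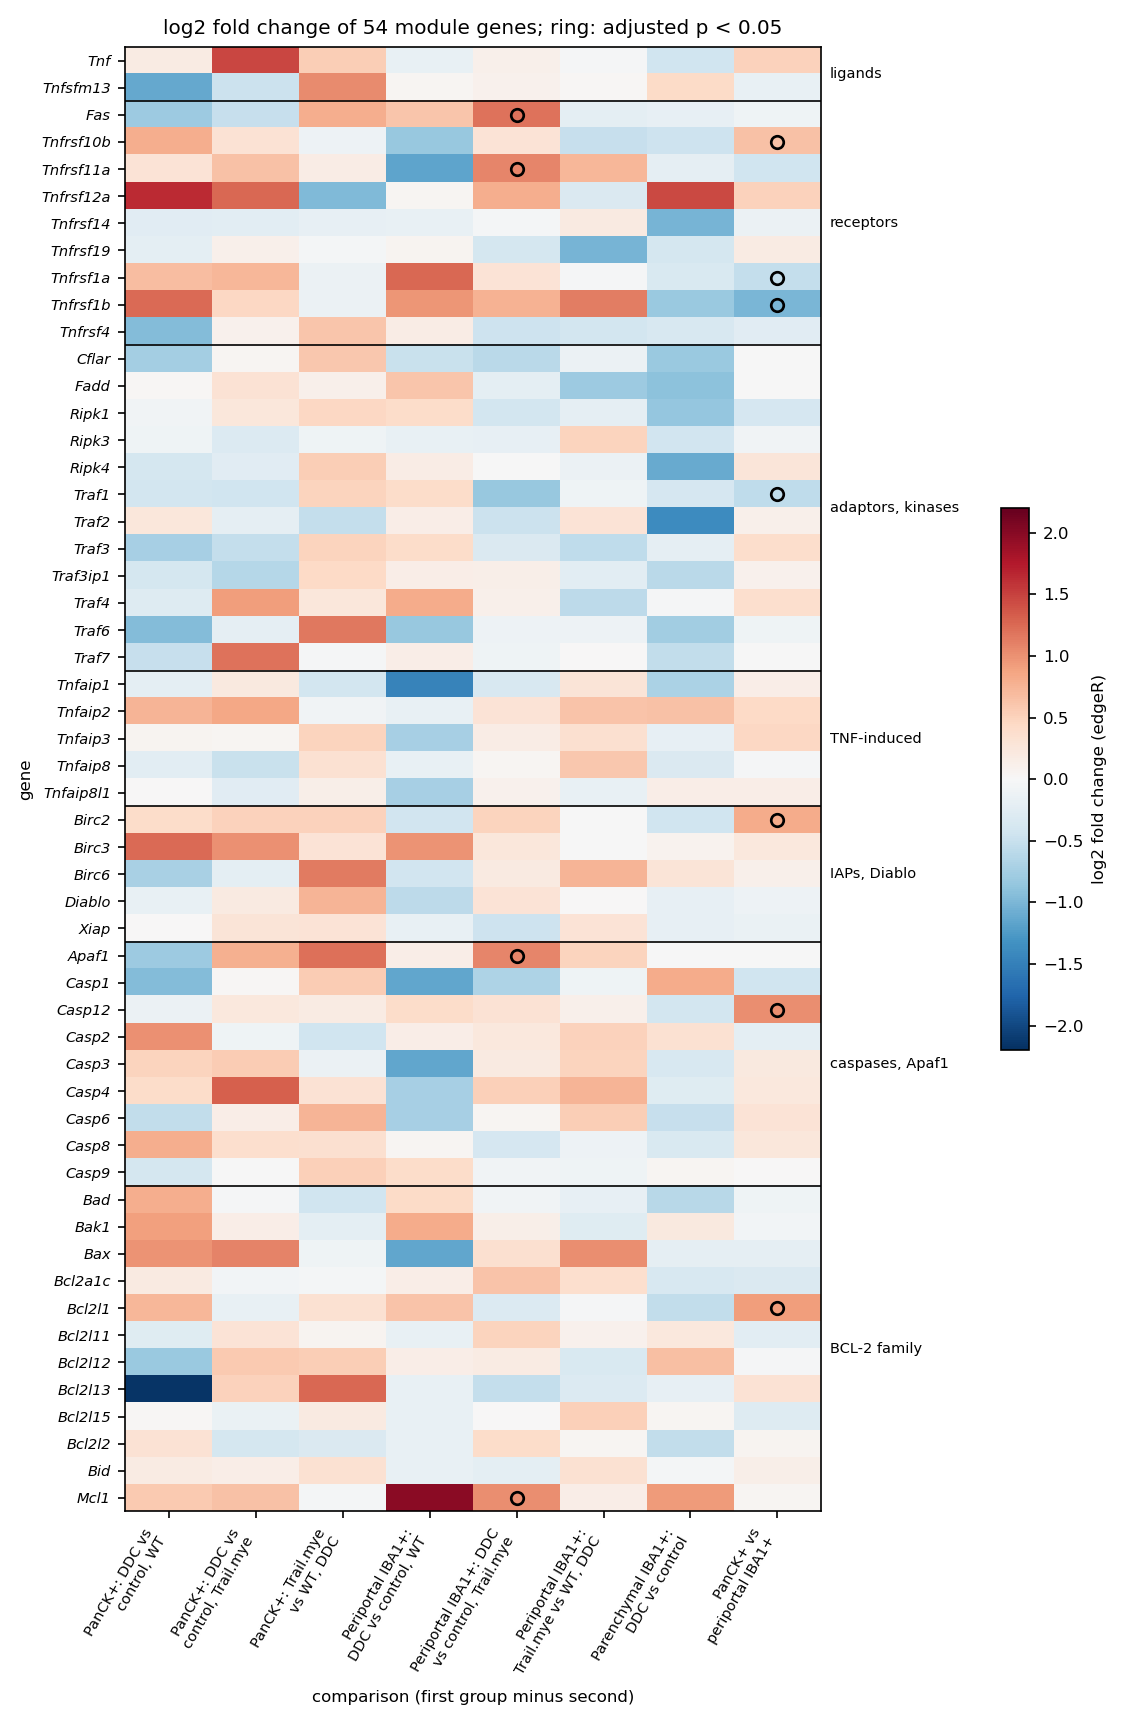
log2 fold changes (edgeR) of 54 module genes, in rows by role, for 8 comparisons in columns, each the group named first minus the second. A ring marks an adjusted p under 0.05. The 4 rings for diet are in periportal IBA1+ segments of Trail.mye mice, and 7 rings are in the column of PanCK+ against periportal IBA1+ segments.

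The comparison with the most calls was that of the 2 segments of the same ROI, at a lower share than over all genes. In 15 ROIs with both, fitted with the ROI as a block, 7 of 55 members (12.7%) were called, beside 17.8% of all genes. At an unadjusted p under 0.05 there were 13 members, and 27.3% of all genes. Higher in PanCK+ segments were Bcl2l1, Casp12, Birc2 and Tnfrsf10b (7.67% of all genes were higher), and higher in periportal IBA1+ segments were Tnfrsf1b, Tnfrsf1a and Traf1 (10.2% of all genes). Of the 9 receptors 6 were not called. DESeq2 and limma each called 5 members, 5 and 2 of them among these 7. After thinning only Casp12 of the 7 was called (adjusted p = 0.0357, edgeR). The cholangiocyte markers summed to 549 to 2195 in PanCK+ and 42.0 to 378 in periportal IBA1+ segments, and the macrophage markers to 52.5 to 160 and 352 to 1155, so that neither segment was free of the other cell type. The fibroblast markers had medians of 176 in PanCK+ and 996 in IBA1+ segments of Trail.mye DDC and of 360 and 902 in WT DDC. The hepatocyte markers had medians of 4139 and 10398 in Trail.mye CON and of 3284 and 9945 in WT CON. The part of these markers in the result was not tested.

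Bcl2l1, which encodes the anti-apoptotic protein BCL-XL, read higher in PanCK+ than in IBA1+ in 15 of 15 ROIs. It averaged 15.0 ± 4.10 in PanCK+ and 8.26 ± 2.28 in IBA1+ segments (SD, n = 15; log2 fold change 0.91, SE 0.15, adjusted p = 2.11e-06). Casp12, a caspase of the endoplasmic reticulum in mice, was higher in 14 of 15 ROIs and lower in 1, ROI 027, with 14.0 ± 4.26 against 6.69 ± 3.10 (1.02, SE 0.17, adjusted p = 1.18e-06). In the 5 ROIs of Trail.mye DDC its PanCK+ values lay between 14.7 and 16.4 and its IBA1+ values between 3.23 and 9.89. Birc2, which encodes the ubiquitin ligase cIAP1, was higher in 9 ROIs, lower in 3 and undecided in 3, with 8.89 ± 4.02 against 5.47 ± 2.05 (0.82, SE 0.18, adjusted p = 0.000266).

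Tnfrsf1b read lower in PanCK+ than in IBA1+ in 11 ROIs, higher in 2 and undecided in 2. It averaged 8.92 ± 3.48 in PanCK+ and 14.4 ± 7.93 in IBA1+ segments (log2 fold change -1.01, SE 0.16, adjusted p = 8.75e-07). In Trail.mye DDC the PanCK+ values were 9.29, 12.6, 10.5, 8.93 and 10.1 and the IBA1+ values of the same ROIs 24.7, 19.4, 28.9, 19.8 and 23.3, without overlap. Tnfrsf1a, which encodes the death domain receptor TNFR1, was also lower in 11 ROIs, higher in 2 and undecided in 2, with 8.23 ± 2.91 against 10.9 ± 4.59 (-0.53, SE 0.15, adjusted p = 0.0080), and the call was lost without ROI 035 (0.188), with DESeq2 (0.143), with limma (0.262) and with the floor set to 0 (0.139). Traf1 was lower in 9 ROIs, higher in 3 and undecided in 3, with 5.01 ± 2.45 against 7.78 ± 4.38 (-0.55, SE 0.18, adjusted p = 0.0288), and was lost without ROI 007 (0.0507), 027 (0.0517), 034 (0.0601) or 035 (0.294). The Traf1 call held in 1 of 7 other settings. It was lost with DESeq2 (0.320), with limma (0.115), with the floor set to 0 (0.316) and without pairing the segments by ROI (0.0923). Bcl2l1, Casp12, Birc2 and Tnfrsf1b were called in each of the 15 fits that left out 1 ROI, but limma kept only Bcl2l1 and Casp12 of the 7, with adjusted p of 0.0733 for Birc2, 0.0772 for Tnfrsf1b and 0.0890 for Tnfrsf10b. Tnf had a log2 value of 0.50 toward PanCK+ and missed the threshold (SE 0.17, adjusted p = 0.0739).

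**Figure D5:**
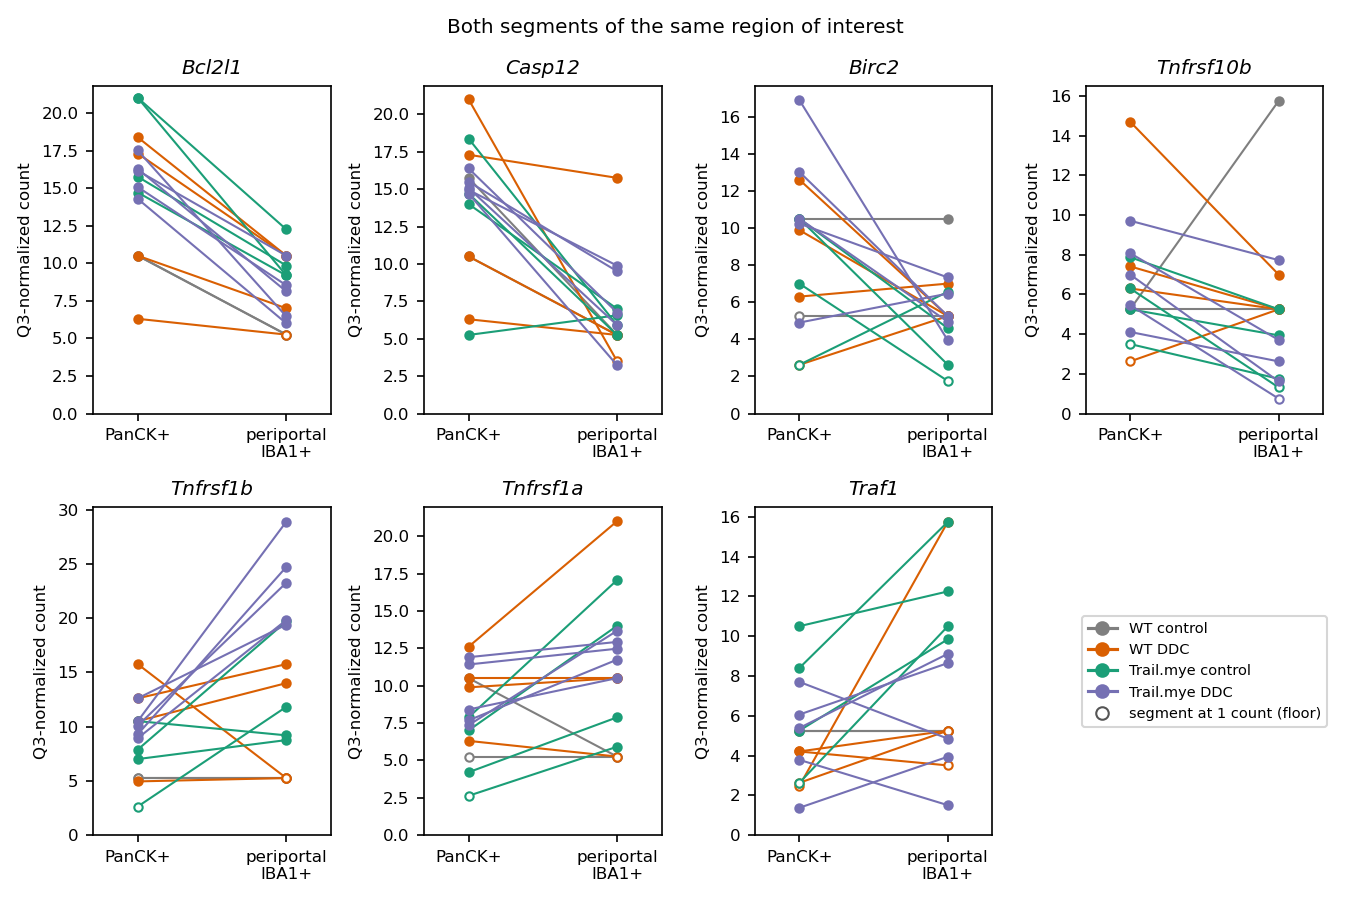
Q3-normalized counts (y axis) of the 7 genes called between the PanCK+ and the periportal IBA1+ segment, with a line for each of 15 ROIs colored by genotype and diet and open points at 1 count. Lines of Bcl2l1 fall in every ROI, and lines of Tnfrsf1b rise in 11.

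In parenchymal IBA1+ segments, which had 7 segments in all, 0 members were called for diet over both genotypes (edgeR, DESeq2 and limma), with 0.91% of all genes called, and 1 member, Tnfrsf12a, had an unadjusted p under 0.05 beside 5.59% of all genes. It read 5.25 in WT CON (1 count), 7.00 and 12.0 in WT DDC, 5.25 and 1.66 in Trail.mye CON and 10.5 and 15.8 in Trail.mye DDC (log2 fold change 1.46, SE 0.61, adjusted p = 0.703). Every DDC value lay above every control value, which held for 1.85% of all genes in this direction. Between periportal and parenchymal IBA1+ segments 0 members were called by edgeR, DESeq2 and limma (2.23% of all genes by edgeR), and 5 had an unadjusted p under 0.05 beside 11% of all genes.

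The other genes of these pathways came from a list of 50, of which 34 were measured. In PanCK+ segments of Trail.mye mice 2 rose on DDC and none fell, beside 2.1% of all genes called (151 of 10547 genes higher and 70 lower). None was called with TMM factors, with DESeq2 or after thinning, and 2 were with limma. Nfkbiz, which encodes the nuclear regulator IkB-zeta, averaged 6.52 ± 5.10 on CON and 19.2 ± 5.84 on DDC (log2 fold change 1.66, SE 0.44, adjusted p = 0.0168), and Relb, a subunit of the non-canonical arm, 5.60 ± 2.96 and 18.0 ± 4.67 (1.58, SE 0.42, adjusted p = 0.0193). Nfkbiz was lost without Trail.mye CON ROI 027, 028 or 029 (adjusted p up to 0.171) and Relb without ROI 026, 028 or 029 (up to 0.174). In WT PanCK+ segments both genes were at 1 count in all 3 CON segments and averaged 13.0 ± 7.87 and 9.34 ± 4.29 on DDC. In periportal IBA1+ segments of Trail.mye mice 1 of the 34 fell, where 9.38% of all genes were called and 5.18% were lower. This was Aifm1, a mitochondrial flavoprotein of caspase-independent cell death, from 11.8 ± 4.15 to 5.32 ± 2.61 (-0.99, SE 0.29, adjusted p = 0.0173). It was lost without ROI 026, 028 or 032 (adjusted p up to 0.253) and in 3 of 5 other alternatives, limma among them. Between the segments of the same ROI 5 of the 34 were higher in PanCK+ and none in IBA1+, beside 7.67% and 10.2% of all genes. DESeq2 called 4 of the 34, limma 2, of which 1 was higher in IBA1+, and none was called after thinning. The 5 called by edgeR were Nfkbiz (0.91, adjusted p = 3.13e-05), Tnip1 (0.84, adjusted p = 0.000165), Relb (0.68, adjusted p = 0.00223), Nfkb2 (0.61, adjusted p = 0.00602) and Nfkbia (0.59, adjusted p = 0.0105). Each is known as a regulator or subunit of NF-kB, and the last pair was lost without ROI 035 (0.0528 and 0.0598). In this order they were higher in PanCK+ in 10, 9, 7, 9 and 9 of 15 ROIs. In Trail.mye CON the PanCK+ means of Relb (5.60), Nfkbiz (6.52) and Nfkbia (10.2) lay below the IBA1+ means (8.15, 7.77 and 10.4). Those of Nfkb2 and Tnip1 lay above.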

How the data were processed

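GeoMx segments were counted by the authors with the mouse Whole Transcriptome Atlas probes after 18 cycles of amplification and sequencing on a NextSeq2000. The deposited expected counts per target had been filtered by the authors by limit of quantification and for presence in over 10% of ROIs. The deposited signal values are the same counts after the authors' Q3 normalization, which sets the 75th percentile of each segment equal. The submitters' processing notes name bcl2fastq and build mm10, and settings for probe assignment and deduplication were not given in the sources used here. Counts of 3 genes that were not whole were rounded. The negative probe, at most 0.00517% of a segment's counts, was left out of the tests.

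Genes were tested with edgeR 4.0.16 (R 4.3.3, quasi-likelihood, two-sided, upper-quartile factors at the 75th percentile, a coefficient per group, a fit per segment class), with no filter. A call is an adjusted p (Benjamini-Hochberg, 10547 genes) under 0.05. Residual degrees of freedom were 12 for PanCK+, 11 for periportal and 3 for parenchymal IBA1+ segments. The SE is the log2 fold change over the root of F. PanCK+ and IBA1+ segments of the same ROI come from the same piece of tissue, hence the same animal, and the ROI was a block there (14 residual degrees of freedom). Across 3089 genes with a mean count of at least 10, the deviations of paired segments correlated by -0.02 to 0.53 and over 0.1 in 5 of 15 ROIs. Against a group at 1 count throughout no fold is given. Fits were checked on simulated data. Alternatives were TMM factors, DESeq2 1.42.0, limma 3.58.1 on log2(Q3-normalized count + 1), edgeR's filter on low counts, the floor of 1 set to 0, thinning to 1 total, no ROI block, and each segment or ROI left out.

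The members, gene lists and tests were chosen with earlier results of these data known, and so were the diet contrasts averaged over both genotypes and the fit on DDC-fed Trail.mye ROIs alone, which were added after the data were seen. Genes named are Tnfrsf10b, Tnf, every member called, the 3 members with the smallest p in each direction of the 4 diet comparisons and of PanCK+ against IBA1+, and called genes of the pathway list, 23 members in all. Values of 1 further member are counted but not reported here. Birc6, Traf6 and those named for detection were named after their values were seen. Marker lists have 10 genes each, of which 5 were measured for neutrophils. Promoters are from RefSeq (GRCm38.p6), in which 50 of 55 members matched. Figures used matplotlib 3.10.9 under Python 3.11.15.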

Additional observations from a re-analysis of the deposited data

Results flagged for a closer look

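Of 12 groups of 4 or 5 segments in which the called genes were checked for a segment far from the others, 3 stood out. Chance gives about 1 in 20 for values without ties or a floor. In periportal IBA1+ segments of Trail.mye DDC, Mcl1 was 20.4 in ROI 035 and 36.4 to 42.8 in the other 4. This is the deepest ROI, with the highest negative probe of its group, and the diet call for Mcl1 held without it. In periportal IBA1+ segments of Trail.mye CON, Tnfrsf11a was 6.57 in ROI 027 and 5.25 in each of the other 3. In PanCK+ segments of Trail.mye CON, Tnfrsf12a was 10.5 in ROI 026 and 2.10 to 2.63 in the other 3, which were at 1 count. With tied values for Tnfrsf11a and floor values for Tnfrsf12a, the rate of 1 in 20 does not apply to these flags.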

How the results depend on the processing

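Of the 13 results called on named members, none turned its direction in 277 values under alternatives, and 77 of these no longer passed the threshold, 52 of 122 for diet and 25 of 155 between segments. Of 41 named results with an unadjusted p under 0.05, 854 of 860 values kept the direction. The 6 that did not, and 1 of the pathway list, were log2 fold changes of -0.69 for Tnfrsf12a (periportal diet, Trail.mye), -0.81 for Tnf (PanCK+ against IBA1+), -1.50 for Bax, -0.40 for Tnfrsf12a and -0.0904 for Nfkbiz (PanCK+ diet, Trail.mye) and -0.0716 for Bax (PanCK+ diet, both genotypes), all after thinning, and 0.0738 for Tnfrsf11a (periportal genotype on CON) without WT ROI 003, the other end of its range with 1 segment left out being -2.22. The cause was not tested.

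For diet in periportal IBA1+ segments of Trail.mye mice, DESeq2 called 1 member, limma 0, the floor set to 0 gave 1 and thinning 0, beside 4 in the main analysis, and 0 to 4 with 1 segment left out. In WT mice limma called 1 and the filter 1 (Mcl1, of 8 members that passed it). Over both genotypes thinning gave 0 in place of 1, and leaving out 1 segment 0 to 1. In PanCK+ segments limma called 1 in WT mice (0 in the main analysis), and over both genotypes DESeq2 called 0, limma 3, the filter 0 (1 member passed it) and thinning 0 in place of 1, with 0 to 1 when 1 segment was left out. Between PanCK+ and IBA1+ segments DESeq2 and limma called 5 each, the filter gave 1 (2 members passed it) and thinning 1 (Casp12) in place of 7, and 6 to 9 were called with 1 ROI left out. Without the replicate block 5 were called there, and the lost calls included Tnfrsf10b (adjusted p = 0.0606). With 1 segment left out all other comparisons kept 0 calls. For diet and genotype, no paired analysis was possible because the groups share no ROI number. Over all genes, thinning cut the calls from 989 to 141 for periportal diet in Trail.mye mice and from 1881 to 379 between segments. Depth limits the WT CON groups and the periportal WT DDC group most, where 30 to 48 members were at 1 count.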
